A study of Mus musculus and Rattus norvegicus with 32 samples.

Results

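This report follows 9 genes of the sarcomere, the repeating contractile unit of striated muscle, through 4 RNA-seq tables of METTL5 loss and gain. They were taken by gene symbol and are Ttn, Mybpc1, Mybpc2, Mybpc3, Myom1, Myom2, Myom3, Nebl and Nrap. All 9 had a row among the 55487 genes of each mouse table, and 8 had a row among the 32883 genes of the rat table, where Ttn was not analysed here.

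Titin, encoded by Ttn, is a giant elastic protein that spans from the Z-disc to the M-band and acts as a spring and a ruler of the thick filament. Myosin-binding proteins C sit in stripes on the thick filament and tune the attachment of myosin heads. Mybpc3 encodes the cardiac form, Mybpc2 the fast skeletal form and Mybpc1 the slow skeletal form. Myomesins (Myom1, Myom2 and Myom3) cross-link thick filaments and the end of titin in the M-band at the centre of the sarcomere. Nebulette, encoded by Nebl, is a small nebulin relative at the cardiac Z-disc, and Nrap encodes a nebulin-related anchoring protein found where myofibrils form and at the intercalated disc. Changes in titin and in cardiac myosin-binding protein C are well-known causes of inherited cardiomyopathy.

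METTL5 is the methyltransferase that places N6-methyladenosine on 18S ribosomal RNA. Each of the 8 groups held 4 libraries. Whole hearts of C57BL/6 mice came from 1-month-old animals labelled Mettl5-KO and control littermates. They also came from 3-month-old animals labelled Mettl5-cKO and control littermates, in which Myh6-Cre, active in cardiomyocytes, removes floxed exons of Mettl5, and from mice of these same 2 genotypes 4 weeks after transverse aortic constriction (TAC; also labelled 3-month-old), a surgical pressure overload of the left ventricle. What the controls carried in the way of Cre or floxed alleles is not given in the sources used here. Neonatal rat ventricular cardiomyocytes (NRVMs) of Sprague Dawley rats at postnatal day 2 were infected with an adenovirus for METTL5 (AdMETTL5) or for green fluorescent protein (AdGFP). All NRVMs of both groups were treated with 20 μM phenylephrine (PE), an adrenergic agonist that drives hypertrophy, for 24 h. The cells had been pre-plated to remove fibroblasts.

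Total counts per library ran from 19899033 to 21804907 in the mouse tables and from 14324700 to 18085339 in the rat table. Gene counts of Mettl5 did not mark the groups in mice (control and labelled knockout means of 5.12 and 5.97 CPM, the gene's counts scaled to library size, at 1 month, 7.36 and 6.51 at 3 months, 6.75 and 6.59 after TAC), so each group is called here by its label. In NRVMs the means were 17.0 CPM with AdGFP and 21.2 CPM with AdMETTL5 (log2 fold change 0.32, edgeR adjusted p = 0.00295). A count over the whole gene also reads exons outside the deletion, and the virus carries a human coding sequence. The paper reports that reads over the deleted exons were nearly absent in METTL5-cKO hearts. Sampling noise did not account for the difference between any 2 libraries of a group, the closest pair having a chi-square per degree of freedom of 2.20. A pair of libraries stood apart from their groups. Control library 1 at 1 month had the lowest summed level of 11 cardiomyocyte markers in its table, at 27787 CPM against 33828 to 44602 in the other libraries. METTL5-cKO TAC library 4 differed from the other 3 of its group by 30.7 to 36.5 chi-square units per degree of freedom, against 8.21 to 17.3 among those 3, and lay nearest to the controls in the summed markers. Member results that rest on either are given with and without it. Genes of the related lists were not refitted without control library 1 at 1 month. Cardiomyocyte markers were abundant in all tables. Markers of skeletal muscle summed to 0.989 to 12.0 CPM per library in the mouse hearts, where Myh1, Myh4, Actn3, Myod1 and Myog had no count.

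Levels were first set against each other within the mouse hearts, as CPM per kb of exon. Mybpc3 led at every age and Mybpc1 was at the bottom. In the control hearts at 3 months, Mybpc3 had 481 ± 23.0 CPM per kb (SD, n = 4), well clear of the rest. Myom2 (79.9 ± 13.4), Myom1 (69.2 ± 7.77) and Nrap (63.2 ± 9.06) followed on the same scale, and neighbours in this order overlapped between libraries. Below them came Ttn at 21.9 ± 2.96 CPM per kb, Nebl at 7.90 ± 1.25, Mybpc2 at 2.80 ± 0.773 and Myom3 at 0.305 ± 0.151, with no overlap between neighbours. Long transcripts such as titin, with 117 kb of exon over all annotated isoforms, are understated on this scale where only some exons are used.

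**Figure D1:**
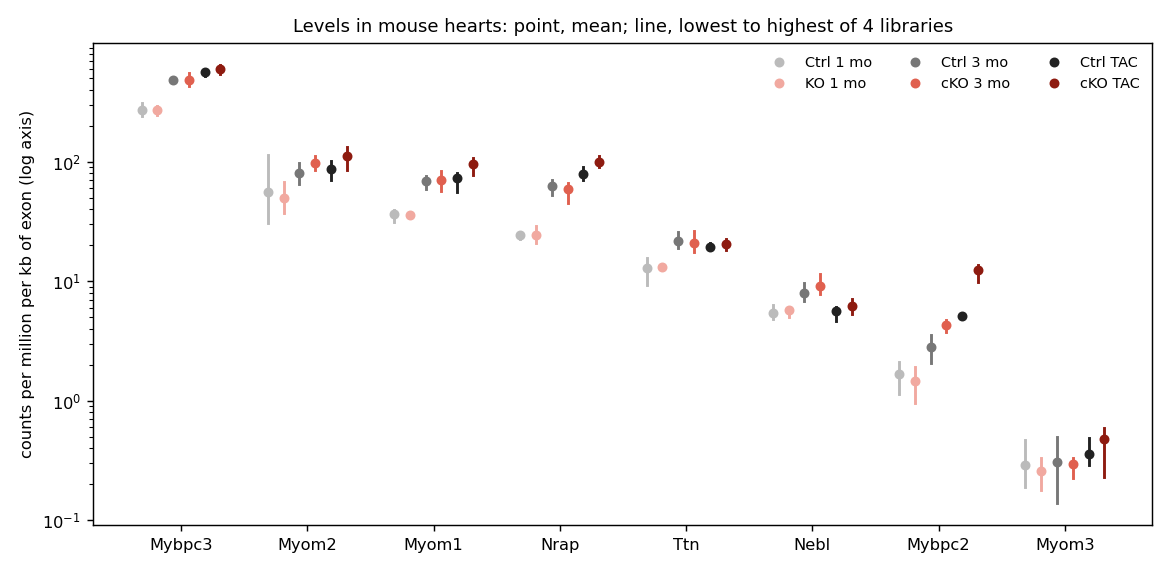
Levels of 8 members in the 6 groups of mouse hearts, in CPM per kb of exon on a log axis, with the mean as a point and the range of 4 libraries as a line. The 3 tables were normalised separately. Mybpc3 stands highest in every group. By mean, Mybpc2 stands below Nebl in every group apart from METTL5-cKO TAC, where it reaches 12.3 against 6.18. In control TAC hearts Mybpc2 (5.09) and Nebl (5.63) overlap between libraries.

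The genes lie on several chromosomes of GRCm38. On chromosome 2 are Ttn (76703980 to 76982547, minus strand), Mybpc3 (91118144 to 91136516, plus strand) and Nebl (17343909 to 17731464, minus strand). Mybpc2 (ENSMUSG00000038670) is on chromosome 7 from 44501699 to 44524656 on the minus strand, and Mybpc1 on chromosome 10 from 88518279 to 88605152. Myom1 is on chromosome 17 (71002633 to 71126856), Myom2 on chromosome 8 (15057653 to 15133541), Myom3 on chromosome 4 (135759715 to 135815564) and Nrap on chromosome 19 (56320035 to 56390037). Exons of Mybpc2 share 192 bases with Gm44646 on the other strand, whose counts came to 0.986% of those of Mybpc2. Myom1 shares 207 bases with Myl12a on the other strand, a gene with 50.5% as many counts, and the strandedness of the libraries is not given in the sources used here.

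Mybpc1 was almost silent in all tables. No library held a count at 1 month or in NRVMs, which allows up to 3 counts per library. At 3 months 1 METTL5-cKO library held 6 counts, and after TAC 1 control library held 1 count and METTL5-cKO library 4 held 10. It was not tested.

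The comparison after TAC addresses how the pressure-overloaded heart differs when cardiomyocytes lack METTL5. Mybpc2, the fast skeletal myosin-binding protein C, rose in the METTL5-cKO TAC hearts by more than 2-fold and was the only member called, on an adjusted p under 0.05. The cardiac form Mybpc3 and titin differed little. All 8 tested members were on the higher side in METTL5-cKO TAC hearts under each scaling tried, with a median log2 fold change of 0.35 against -0.0035 over all 16340 genes tested. By calls, 1 of 8 rose and none fell, where 6.57% of all genes rose and 6.10% fell. With a log2 fold change over 1 also required, the share of all genes was 2.01%, and Mybpc2 met it.

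The 4 control TAC libraries had 18.4, 18.3, 18.4 and 18.4 CPM of Mybpc2, and the METTL5-cKO TAC libraries had 49.8, 49.8, 35.5 and 43.0 CPM. The lowest METTL5-cKO TAC library thus held nearly 2-fold the highest control, and the groups did not overlap. The means were 18.4 ± 0.0711 and 44.5 ± 6.79 CPM (SD, n = 4), a 2.42-fold rise that is 1.28 ± 0.110 as log2 fold change and standard error, at an edgeR quasi-likelihood adjusted p of 0.00128. Leaving out each library in turn kept the log2 fold change between 1.22 and 1.37 and the adjusted p at or below 0.00910. The control values spanned 0.163 CPM, less than the counting error of a single library of 0.956 CPM.

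Skeletal muscle markers overlapped between the TAC groups. Their summed level was 0.989 to 3.49 CPM in the controls and 2.14 to 4.34 CPM in the METTL5-cKO TAC hearts, with the 5 named above at 0, and none of the 3 that could be tested was called. Their part in the Mybpc2 values was not tested. Atrial markers, of which Myl4 and Gja5 could be tested, summed to 5.75 to 6.45 and 6.14 to 7.72 CPM and gave no call.

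**Figure D2:**
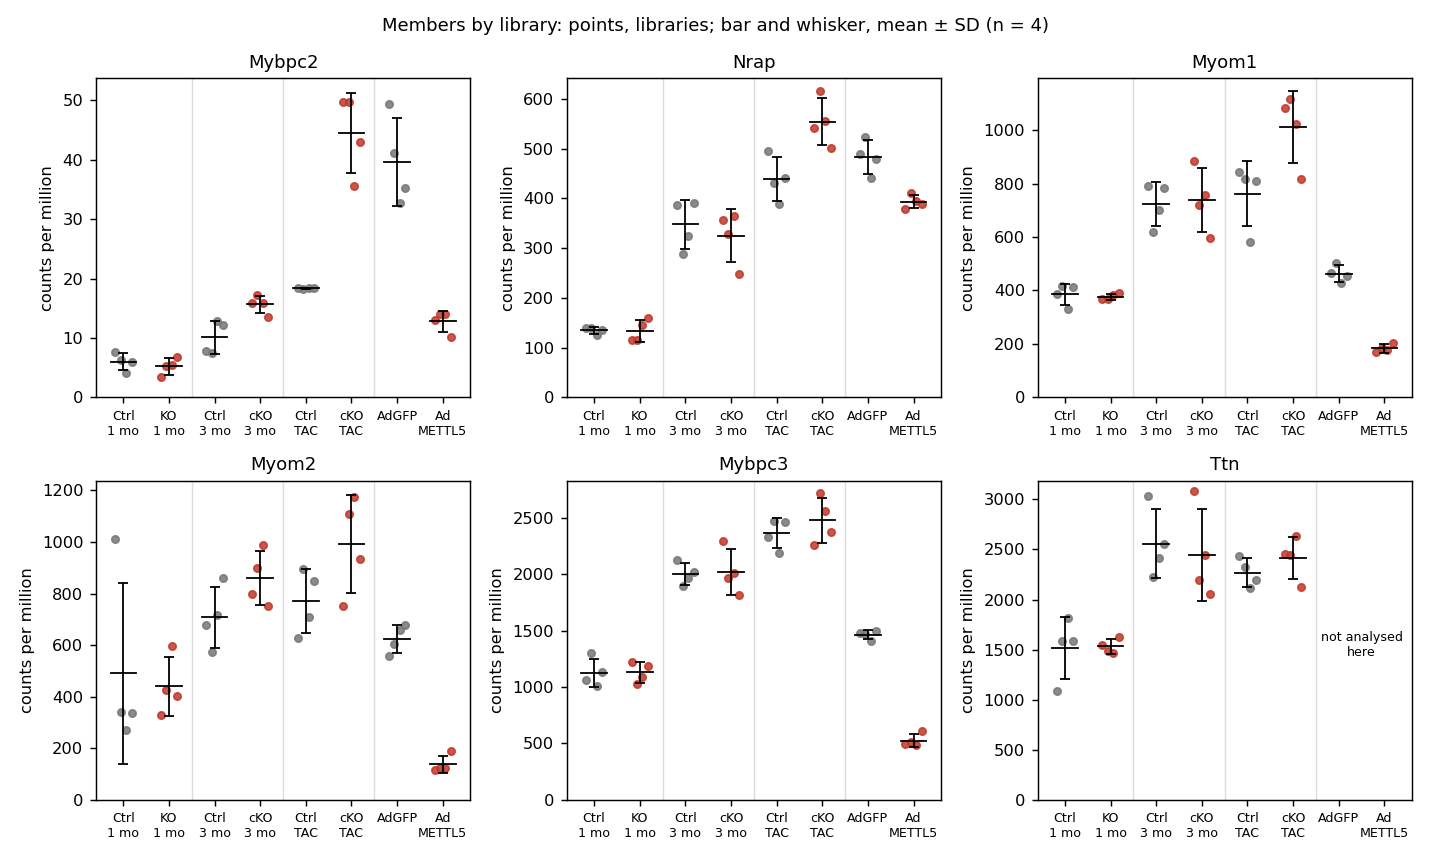
CPM of 6 members in every library (points, with mean and SD, n = 4), grouped by table along the horizontal axis. The tables were normalised separately. Mybpc2 lies at 35.5 to 49.8 in METTL5-cKO TAC hearts and at 18.3 to 18.4 in their controls, and in AdMETTL5 cultures Mybpc2, Mybpc3, Myom1 and Myom2 lie below every AdGFP culture.

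The bases before the start of Mybpc2 are shown since it is the member that was called in mouse hearts, beside those of Mybpc3, its cardiac relative that was not. Both are from RefSeq on GRCm38.p6, 250 bases each on the strand of the gene and ending just before the annotated start, with motif matches in capitals. The 5 motifs searched on both strands were MEF2, CArG, M-CAT with the letters CATTCC, the letters of GATA itself, and the E-box, CANNTG.
Mybpc2, chr7:44524670-44524919, minus strand: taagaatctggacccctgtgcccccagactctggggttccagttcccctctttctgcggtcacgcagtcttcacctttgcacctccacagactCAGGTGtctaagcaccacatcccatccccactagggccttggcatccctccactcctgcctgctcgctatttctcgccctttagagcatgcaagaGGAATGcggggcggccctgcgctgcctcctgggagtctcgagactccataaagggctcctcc
Mybpc3, chr2:91117894-91118143, plus strand: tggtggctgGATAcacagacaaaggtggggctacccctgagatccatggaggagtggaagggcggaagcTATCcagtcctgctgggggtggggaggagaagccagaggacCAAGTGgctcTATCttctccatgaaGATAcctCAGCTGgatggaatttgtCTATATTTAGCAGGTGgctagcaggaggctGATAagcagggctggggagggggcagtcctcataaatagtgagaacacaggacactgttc
The window of Mybpc2 held 1 E-box, CAGGTG, and 1 M-CAT match, read as GGAATG here because it lies on the other strand, 62 to 57 bases before the start. The window of Mybpc3 held 1 MEF2 match, CTATATTTAG, directly followed by an E-box, with 3 E-boxes and 5 GATA matches in all. Over 27025 genes with such a window, 3.01% held a MEF2 match, 1.40% CArG, 12.6% M-CAT, 54.1% GATA and 66.0% an E-box. Of the 8 members with a window, 3 held MEF2 (Ttn, Mybpc3 and Myom3, the first as CTAAATTTAG), 2 CArG (Myom1 and a start of Nebl), 2 M-CAT (Mybpc2 and a start of Nebl), 4 GATA and all 8 an E-box. The share over all genes used the first listed window of each gene, while a member counted if any of its windows matched. Nebl had more than 1 window, and its CArG match was not in the first listed. All are matches of letters, not sites shown to be bound.

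Nrap was the next member by adjusted p after TAC. Its 4 control libraries held 495, 431, 389 and 441 CPM and the METTL5-cKO TAC libraries 542, 616, 556 and 502 CPM. The groups did not overlap, though the highest control and the lowest METTL5-cKO TAC library lay close together. The log2 fold change was 0.34 (standard error 0.0976, edgeR adjusted p = 0.0520), and the exact two-sided permutation test gave p = 0.0286, the smallest it can give with 4 against 4 libraries. Non-overlap held for 2 of 8 members, Mybpc2 and Nrap, and for 18.6% of all genes. Without METTL5-cKO TAC library 4 the adjusted p of Nrap was 0.0165, and without control TAC library 1 it was 0.0403. With all libraries DESeq2 called Nrap higher (0.35, adjusted p = 0.00471).

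The M-band genes lay on the higher side without passing the test in the main edgeR fit. Myom1, the myomesin of all striated muscle, had 843, 816, 580 and 808 CPM in control TAC libraries and 1083, 1117, 1024 and 817 in METTL5-cKO TAC libraries (log2 fold change 0.41, standard error 0.142, edgeR adjusted p = 0.0864). METTL5-cKO TAC library 4 lay within the control range, and without it the adjusted p was 0.0197. With all libraries Myom1 was called higher by DESeq2 (0.43, adjusted p = 0.0264) and by edgeR with library size alone (adjusted p = 0.0387). Myom2 (M-protein) had 628, 896, 710 and 849 CPM against 750, 1109, 1177 and 935, and these overlapped (log2 fold change 0.37, standard error 0.161, edgeR adjusted p = 0.156). Myom3 was scarce, at 36 to 59 counts in the controls and 28 to 82 in the METTL5-cKO TAC libraries. Its log2 fold change of 0.41 had a standard error of 0.287 (edgeR adjusted p = 0.360), and without METTL5-cKO TAC library 4, the lowest of all 8, the adjusted p was 0.0388.

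Titin had 2439, 2323, 2114 and 2198 CPM in control TAC libraries and 2457, 2446, 2631 and 2126 CPM in METTL5-cKO TAC libraries. The groups lay on top of each other (log2 fold change 0.09, standard error 0.0955, edgeR adjusted p = 0.564). Mybpc3 had 2333, 2467, 2184 and 2459 CPM against 2260, 2715, 2562 and 2375, and likewise overlapped (0.07, standard error 0.0922, edgeR adjusted p = 0.654). Nebl had 92.4, 90.0, 70.5 and 90.0 CPM against 89.0, 99.1, 108 and 80.7 (0.14, standard error 0.116, edgeR adjusted p = 0.463). A gene count cannot show which titin isoforms were made.

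Cardiomyocyte markers were lower as a sum in the same hearts, though other muscle genes, such as Des, Flnc and Ankrd1, rose (given below). The summed level of the 11 cardiomyocyte markers was 54669 to 59799 CPM in control TAC hearts and 38686 to 50865 in METTL5-cKO TAC hearts, with 4 of 11 called lower, none higher and a median log2 fold change of -0.34. In bulk tissue fewer cardiomyocytes and less RNA per cardiomyocyte cannot be told apart. Fibroblast markers moved the other way, from 548 to 713 up to 839 to 2203 CPM, with 6 of 7 called higher. When the summed cardiomyocyte markers were used as the library size, the median of all genes moved to 0.43 and that of the members to 0.80. On that scale 7 of the 8 members were called higher, Myom3 being the exception, but so were 50.9% of all genes, and titin, at 0.54, and Mybpc3, at 0.52, lay near the median of all genes. The part of cell composition in the member values was not tested.

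At 3 months, without surgery, no member was called in METTL5-cKO hearts (0 of 8 by edgeR and by DESeq2, 1 of 8 at an unadjusted p under 0.05), where 0.0732% of all genes were called. Mybpc2 was again the member with the widest gap between groups. It had 7.88, 7.53, 12.8 and 12.2 CPM in the controls and 16.0, 17.2, 15.9 and 13.6 CPM in the METTL5-cKO hearts. The groups did not overlap, which held for 1 of 8 members and for 4.23% of all genes. The log2 fold change was 0.63 (standard error 0.184, edgeR adjusted p = 0.439), from 10.1 ± 2.79 to 15.6 ± 1.50 CPM (SD, n = 4). Skeletal muscle markers summed to 1.62 to 2.89 CPM in the controls and 2.52 to 12.0 CPM in the METTL5-cKO hearts. None of them was called, and their part in the Mybpc2 values was not tested.

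The other members at 3 months overlapped between genotypes. Myom2 had 574 to 861 CPM in controls and 751 to 990 in METTL5-cKO hearts (log2 fold change 0.28, standard error 0.136, edgeR adjusted p = 0.740), and Nebl had 105 to 148 against 119 to 175 (0.21, standard error 0.146, edgeR adjusted p = 0.897). For Ttn, Mybpc3, Myom1, Myom3 and Nrap the log2 fold changes lay between -0.10 and 0.03. Standard errors ran from 0.0932 for Mybpc3 to 0.330 for Myom3. The median over the 8 members was 0.02, beside 0.0007 over all genes.

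Whether the genotype effect after TAC exceeded that at 3 months was asked by an interaction term over 16 libraries. Again no member was called (0 of 8 by edgeR and by DESeq2, 2 of 8 at an unadjusted p under 0.05), where 0.00586% of all genes were. The effect on Mybpc2 was larger after TAC by 0.66 on the log2 scale (standard error 0.224, edgeR adjusted p = 0.252), and that on Nrap by 0.45 (standard error 0.185, edgeR adjusted p = 0.353). The rise of Mybpc2 after TAC is thus not shown to differ from the gap at 3 months. Scaled together, Mybpc2 stood at 10.1 ± 2.82 CPM in unstressed controls, 15.6 ± 1.57 in unstressed METTL5-cKO hearts, 18.4 ± 0.171 in control TAC hearts and 44.8 ± 6.80 in METTL5-cKO TAC hearts (SD, n = 4). Surgery and table differ together between these pairs, so they are given side by side only.

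At 1 month no member was called in the hearts labelled METTL5-KO (0 of 8 by edgeR and by DESeq2, and 0 of 8 at an unadjusted p under 0.05), where 0.00612% of all genes were called. No member separated the groups, as 3.01% of all genes did. Log2 fold changes ran from -0.20 for Mybpc2 and Myom3 to 0.07 for Nebl. Titin had 1083, 1587, 1816 and 1589 CPM in controls and 1548, 1489, 1464 and 1624 in METTL5-KO hearts. Control library 1 was the lowest of the 8, and without it the log2 fold change was -0.12 in place of 0.01 (standard error 0.166 with all libraries).

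The same library held 1014 CPM of Myom2, where the other 3 controls had 342, 270 and 337 and the METTL5-KO hearts 330, 427, 597 and 404. Myom2 thus gave a log2 fold change of -0.16 (standard error 0.405, edgeR adjusted p = 0.979) with this library and 0.48 (edgeR adjusted p = 0.758) without it. Its Mybpc3, at 1064 CPM, lay inside the 1010 to 1299 of the other controls.

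In NRVMs under PE, gain of METTL5 went with lower levels of most members. The cardiac and the fast skeletal myosin-binding protein C, Myom1 and Myom2 fell to between 0.220 and 0.397 of their AdGFP level on the scaling over all genes, Nrap fell slightly, and Nebl and Myom3 did not pass the test, but Myom1 and Nrap turned with another scaling. With summed cardiomyocyte markers as the library size, which moved the median of all genes to 1.33, only Myom2 and Mybpc2 were still called lower, while Nrap, Nebl and Myom3 were called higher, Mybpc3 lost its call (-0.14, adjusted p = 0.207) and Myom1 turned to 0.01. On that scale 96.6% of all genes were called higher and 0.299% lower. Under the main scaling 5 of 7 tested members were called lower and none higher, where 25.7% of all 15041 genes tested were lower and 27.1% higher. With a log2 fold change under -1 also required, 4 members remained, where 1.80% of all genes did.

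On the main scaling, Myom2 had the largest log2 fold change of the members in size. The AdGFP cultures had 557, 603, 658 and 679 CPM, and the AdMETTL5 cultures 117, 123, 122 and 187 CPM. The highest AdMETTL5 culture lay well under the lowest AdGFP culture, and the log2 fold change was -2.18 (standard error 0.134, edgeR adjusted p = 1.27e-07). Mybpc2 had 49.4, 41.2, 32.8 and 35.2 CPM with AdGFP and 13.0, 14.0, 14.0 and 10.2 CPM with AdMETTL5 (-1.63, standard error 0.135, edgeR adjusted p = 1.30e-06). The direction is opposite to that in METTL5-cKO TAC hearts, in another species and cell system.

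Mybpc3 had 1480, 1471, 1404 and 1495 CPM with AdGFP and 490, 515, 484 and 609 CPM with AdMETTL5. This is a log2 fold change of -1.48 (standard error 0.0708, edgeR adjusted p = 2.39e-08) on the main scaling and -0.14 with marker scaling. Myom1 had 464, 504, 429 and 454 CPM against 168, 184, 177 and 205 (-1.33, standard error 0.0675, edgeR adjusted p = 3.14e-08). Nrap moved far less on this scaling, from 489, 523, 440 and 480 CPM to 379, 410, 395 and 389 (-0.30, standard error 0.0551, edgeR adjusted p = 0.000725), and was still without overlap.

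Nebl had 128, 146, 156 and 167 CPM with AdGFP and 123, 118, 133 and 146 with AdMETTL5, and the groups overlapped (log2 fold change -0.20, standard error 0.0837, edgeR adjusted p = 0.0623). It was called lower by DESeq2 (adjusted p = 0.0276) and without AdGFP culture 1 (0.0102) or AdMETTL5 culture 4 (0.0224). Myom3, at 24 to 44 counts, gave -0.05 (standard error 0.189, edgeR adjusted p = 0.847). Non-overlap held for the 5 called members of 7, and for 48.4% of all genes.

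Cardiomyocyte markers fell in the same cultures. Their sum was 33095 to 42518 CPM with AdGFP and 14213 to 16056 with AdMETTL5, with 10 of 11 called lower, 1 higher (Ckmt2, named after its value was seen) and a median log2 fold change of -1.14, close to the -1.33 of the members. Fibroblast markers also fell, from 10687 to 11237 down to 8535 to 9422 CPM, 5 of 6 being called lower on the main scaling. Skeletal muscle markers summed to 27.0 to 38.5 and 12.1 to 14.0 CPM, with 4 of 6 lower. Among them, Myh3, embryonic myosin heavy chain, fell from 13.4 ± 2.20 to 3.85 ± 0.468 CPM, and Tnni2, fast skeletal troponin I, had 2.24 ± 0.279 and 0.0839 ± 0.168 CPM (SD, n = 4). Atrial markers Myl4, Myl7 and Sln were called lower as well, with log2 fold changes of -1.02, -1.31 and -0.65, which turned to 0.31, 0.02 and 0.68 with marker scaling. The part of these in the member values was not tested.

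**Figure D3:**
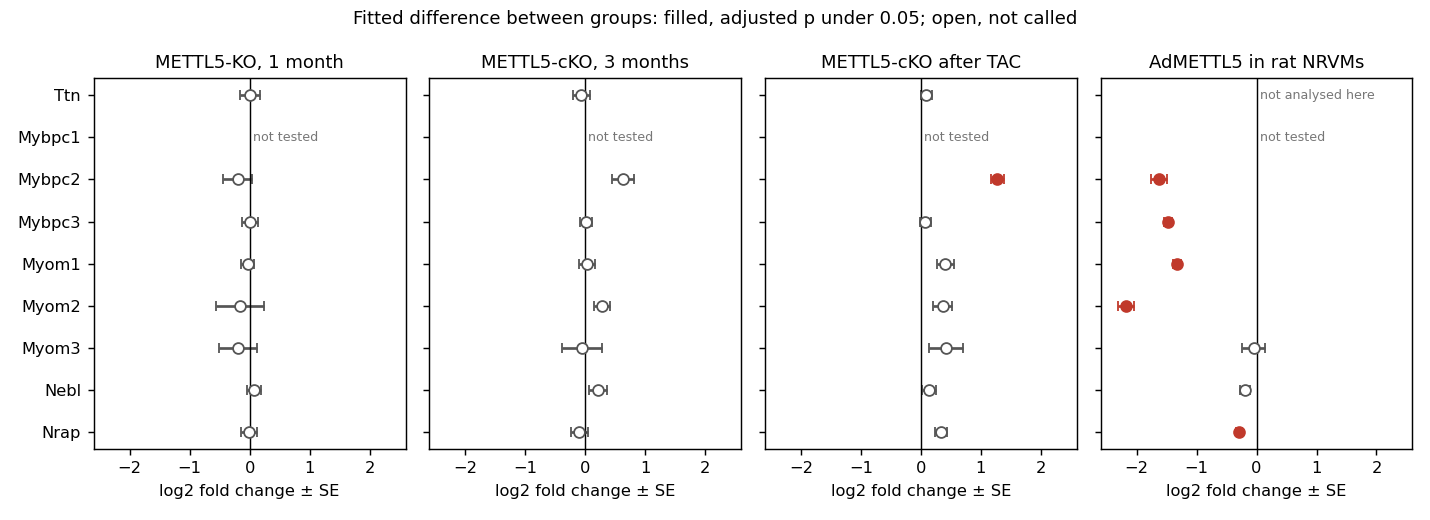
Log2 fold change with standard error of each member in the 4 comparisons (horizontal axis), edgeR calls filled in. The points at 1 month and 3 months are all open, Mybpc2 alone is filled after TAC at 1.28, and 5 of 7 are filled below 0 in NRVMs, where scaling by cardiomyocyte markers in place of all genes turns Nrap and Myom1 above 0.

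Ratios within a library do not depend on any scaling. In the control hearts, Mybpc2 had 5.33 ± 1.29 counts per 1000 counts of Mybpc3 at 1 month, 5.06 ± 1.43 at 3 months and 7.81 ± 0.472 after TAC (SD, n = 4). The hearts labelled METTL5-KO had 4.67 ± 1.29 at 1 month, overlapping with their controls. METTL5-cKO hearts had 7.77 ± 0.754 at 3 months and 18.1 ± 3.33 after TAC, both without overlap with their controls. In NRVMs the ratio was 27.1 ± 4.73 with AdGFP and 24.9 ± 5.48 with AdMETTL5, and the cultures overlapped. In METTL5-cKO TAC hearts, by contrast, Mybpc2 was called and Mybpc3 was not. These ratios were chosen after the values were seen and were not tested.

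The ratio of Myom2 to Myom1 behaved the other way round. It was 1.03 ± 0.203 counts per count in control TAC hearts and 0.995 ± 0.214 in METTL5-cKO TAC hearts, with overlap. In NRVMs it was 1.36 ± 0.183 with AdGFP and 0.742 ± 0.113 with AdMETTL5, with none. At 1 month control library 1 had a ratio of 2.63 where the other 3 controls lay between 0.818 and 0.822. The summed members came to 11.1 to 12.4% of the summed cardiomyocyte markers in control TAC hearts and to 13.5 to 20.9% in METTL5-cKO TAC hearts, METTL5-cKO TAC library 4 being the lowest of its group. In NRVMs they came to 7.50 to 9.55% and 8.44 to 10.9%. Nrap counts per Nebl count, also computed, overlapped between the groups in every comparison, at 5.14 ± 0.354 and 5.92 ± 0.514 after TAC.

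**Figure D4:**
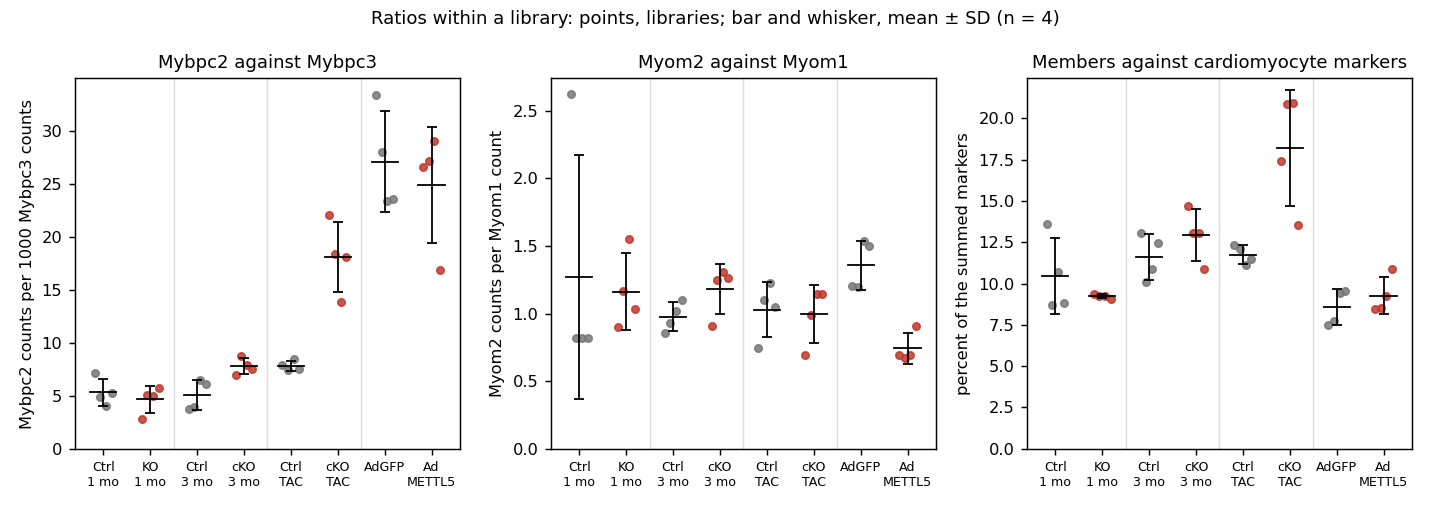
Shown are 3 ratios in every library (points, with mean and SD, n = 4): Mybpc2 per 1000 Mybpc3 counts, Myom2 per Myom1 count, and summed members as a percentage of the summed cardiomyocyte markers. Nrap per Nebl count is not shown. Mybpc2 to Mybpc3 is higher in METTL5-cKO hearts at 3 months and after TAC, and Myom2 to Myom1 is lower in AdMETTL5 cultures.

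Genes that work with the members were read by list. At 1 month and 3 months no gene of the M-band, titin, thick filament, nebulin or splicing lists was called, nor any marker of cardiomyocytes, fibroblasts, endothelium, macrophages, smooth muscle, skeletal muscle or atrium. Over all genes after TAC, 6.57% were called higher and 6.10% lower, beside which each list count after TAC is to be read. After TAC, 5 of 13 partners of titin at the Z-disc and I-band rose and none fell, with a median of 0.12. Ankrd2, a muscle ankyrin repeat protein, rose from 0.672 ± 0.108 to 3.45 ± 0.756 CPM (log2 fold change 2.35). Its relative Ankrd1 rose from 909 ± 109 to 3180 ± 1008 CPM (1.81), and Flnc, filamin C, from 212 ± 19.1 to 385 ± 47.5 CPM (0.86). The other two called, Ankrd23 and Fhl1, are named after their values were seen (1.72 and 1.01).

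Of 11 genes of the nebulin family and partners of Nrap, 4 rose after TAC and none fell, with a median of 0.45. Xirp2, an actin-binding protein of the intercalated disc, rose from 370 ± 60.6 to 1460 ± 631 CPM (log2 fold change 1.98). Desmin (Des), the intermediate filament that ties Z-discs together, rose from 1496 ± 35.8 to 3019 ± 738 CPM (1.01). Xirp1 (0.69) was lost without control TAC library 4 or METTL5-cKO TAC library 2, at adjusted p = 0.0605 and 0.0564, and the last of the 4 was Tln1, talin (0.38), named after its value was seen.

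Calls in the M-band and thick filament lists were as follows. Where 6.57% of all genes rose and 6.10% fell, 1 of 12 M-band partners rose and none fell, with a median of -0.05. It was Alpk3, an alpha kinase of the M-band (84.8 ± 7.27 to 127 ± 24.3 CPM, log2 fold change 0.59, edgeR adjusted p = 0.0257), whose adjusted p was 0.0605 to 0.0808 without control TAC library 2, 3 or 4 or METTL5-cKO TAC library 1 or 2. Of 10 thick filament genes 3 fell and none rose, with a median of -0.16, and all 3 are myosin chains. Myl2, the ventricular regulatory light chain, had 7660 ± 758 and 4557 ± 969 CPM (-0.75), and Myh7b had 116 ± 16.2 and 66.0 ± 15.5 CPM (-0.81). The adjusted p of Myl2 was 0.0182 with all libraries and 0.0519 to 0.0631 without control TAC library 2 or 4 or METTL5-cKO TAC library 2, and that of Myh7b was 0.0503 to 0.0526 without the same libraries. Myl3 (-0.37) was called with all libraries and was lost without 7 of the 8 (adjusted p up to 0.117) and turned to 0.05 with marker scaling. Myl3, Myl2 and Myh6 are themselves among the cardiomyocyte markers summed for that scaling, so it is no independent check of them. None of the 7 muscle splicing factors was called, among them Rbm20, the regulator of titin splicing, and their median was 0.03. Endothelial markers fell (5 of 6, none higher), 1 of 6 macrophage markers (Adgre1) and 1 of 6 smooth muscle and pericyte markers (Cspg4) rose, the last pair named after their values were seen.

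Most genes of 3 lists fell in NRVMs on the main scaling, while M-band partners and splicing factors moved in both directions. Over all genes there, 25.7% were called lower and 27.1% higher. Of the titin partners 9 of 10 fell, none rose and the median was -0.92. Ankrd1 fell from 6325 ± 570 to 1287 ± 102 CPM (log2 fold change -2.30), Csrp3, muscle LIM protein, from 1271 ± 159 to 373 ± 16.6 CPM (-1.77) and Ldb3, the Z-disc protein Cypher, from 1116 ± 50.2 to 394 ± 34.4 CPM (-1.50), which lost its call with marker scaling (-0.17, adjusted p = 0.120). Ankrd1 thus went up after TAC in METTL5-cKO hearts and down with AdMETTL5. Without surgery it was not called, at -1.56 at 1 month (edgeR adjusted p = 0.973) and 0.44 at 3 months (edgeR adjusted p = 0.943). Its groups at 1 month did not overlap, as for 3.01% of all genes. The controls there had 453 ± 383 CPM, the highest at 1018, against 154 ± 19.5 in METTL5-KO hearts (SD, n = 4). Ankrd1 was not refitted without control library 1, so how far the value at 1 month rests on it is not known. Of 13 thick filament genes in NRVMs 10 fell and 1 rose (Hsp90aa1, named after its value was seen), with a median of -1.02. The log2 fold change was -2.34 for Myl2, -2.11 for Myh7, the slow cardiac myosin heavy chain, and -1.53 for Myh6.

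Of 10 nebulin-related genes in NRVMs 8 fell and 1 rose (Lmod3, named after its value was seen), with a median of -0.60. Tmod1, which caps thin filament ends, had a log2 fold change of -1.32, Klhl41 of -0.78 and Vcl, vinculin, of -0.55, and marker scaling gave 0.02, 0.56 and 0.78. Of 12 M-band partners 7 fell and 4 rose, with a median of -0.19, beside 25.7% of all genes lower and 27.1% higher. The ubiquitin ligase gene Trim55 fell from 420 ± 11.1 to 185 ± 12.3 CPM (-1.19) and Speg from 256 ± 12.6 to 137 ± 5.72 CPM (-0.90), which marker scaling turned to 0.15 and 0.43, while Sqstm1, the autophagy receptor p62, rose from 347 ± 10.3 to 531 ± 24.2 CPM (0.61). Of 7 splicing factors 3 rose and 1 fell, with a median of 0.10. Mbnl1 and Ptbp1 had log2 fold changes of 0.47 and 0.30, and Rbm20 fell by 0.18 on the main scaling, was not called with library size alone (-0.05, adjusted p = 0.408) and was at 1.15 with marker scaling. Endothelial markers had 1 of 5 higher (Kdr), macrophage markers 1 of 4 lower (Adgre1), and smooth muscle and pericyte markers 3 of 6 higher and 1 lower (Acta2, Tagln and Cspg4, and Pdgfrb), these also named after their values were seen.

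**Figure D5:**
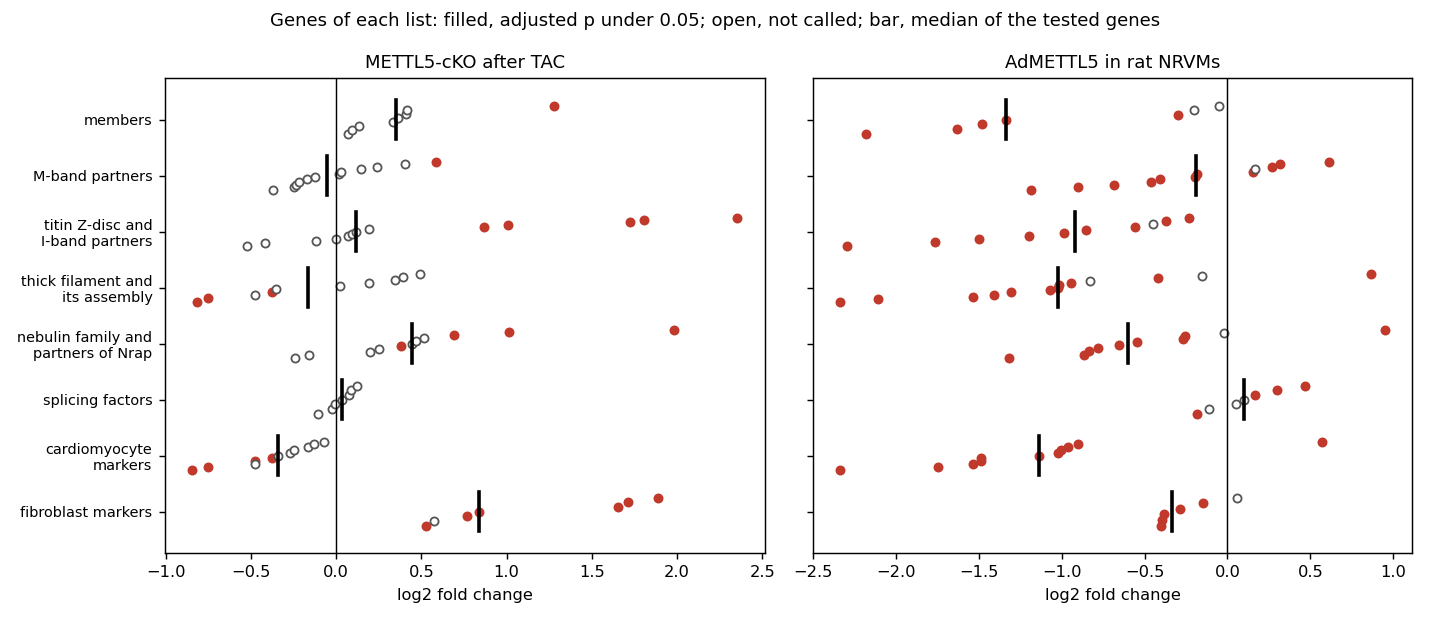
Log2 fold changes (horizontal axis) of each tested gene of the members, 5 related lists and 2 marker lists after TAC and in NRVMs, with edgeR calls filled and the median as a bar. After TAC the members' median is 0.35 while that of cardiomyocyte markers is -0.34. In NRVMs both lie under -1, and scaling by the cardiomyocyte markers puts the members' median at 0.01.

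Genes with the pattern most like a called member were sought over the 8 libraries of its table. After TAC, Mybpc2 was followed most closely by Gm13481, Gm47692 and Ms4a6c, with root mean square differences of 0.138, 0.141 and 0.170 on the log2 scale, against an SD of Mybpc2 of 0.689. In NRVMs, Myom2 was closest to Myh7 (0.141), then Nsg2 (0.183) and Cacna1g (0.205), with its own SD at 1.20. The neighbours of Mybpc3 were Tril (0.0363), Ldb3 (0.0410) and Fignl1 (0.0779). Those of Myom1 were S1pr1 (0.0708), Actn2 (0.0867) and AABR07037243.1 (0.0884). Mybpc2 was nearest to Inha (0.0934), Serinc2 (0.104) and Myh3 (0.125), and Nrap to Ehd4 (0.0253), Myo18b (0.0348) and Ankrd40 (0.0366). Among the neighbours in NRVMs, Ldb3, Actn2, Myh7 and Myh3 are themselves sarcomere genes. The share of sarcomere genes among all candidates was not counted, and shared regulation was not tested.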

How the data were processed

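RNA-seq of mouse hearts and NRVMs was taken from 4 deposited tables with 4 libraries per group. The authors aligned reads with HISAT2 2.0.4 to GRCm38 or Rnor_6.0 and made estimated counts per gene with StringTie 2.1.4, which were deposited as whole numbers without scaling (the plan had assumed plain counts). Columns at 1 month were matched to samples, the others to groups only, and libraries within a group are ordered by the numbers their columns carry.

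Each comparison was fitted over all genes in edgeR 4.0.16 (R 4.3.3) with TMM, filterByExpr (minimum count 10, total 15), the quasi-likelihood test and Benjamini-Hochberg adjustment. Fit code was tested on simulated data. A call is an adjusted p under 0.05, and the standard error is the log2 fold change over the root of F. CPM uses TMM-scaled library sizes. Lists are described by counts only. DESeq2 1.42.0, other scalings, other filters and leaving out each library were alternatives. The columns carry distinct numbers, but no source used here says that these mark separate animals or cultures, so p-values measure the spread between these libraries, which may be technical. Exon lengths came from GENCODE M21.

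Members and lists were chosen with earlier results of these data known. Named were all members, Mettl5, up to 3 called genes per list with the smallest adjusted p, and the 3 genes most like each called member. Protein sequences were not used here.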

Additional observations from a re-analysis of the deposited data

Results flagged for a closer look

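Of 62 sets of 4 libraries (a tested member in a group), 5 had a library far from the other 3 by Dixon's test for 4 values. Chance alone flags about 5% of sets. Myom2 in control library 1 at 1 month stood at 1014 CPM, against 270 to 342 in the other 3. Myom1 in control TAC library 3 stood at 580 CPM, against 808 to 843, and the same library was low for Nebl, at 70.5 CPM against 90.0 to 92.4. Myom3 in METTL5-cKO TAC library 4 stood at 1.40 CPM, against 3.29 to 3.55. Myom2 in AdMETTL5 culture 4 stood at 187 CPM, against 117 to 123. Without this culture the log2 fold change of Myom2 was -2.37 in place of -2.18.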

How the results depend on the processing

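After TAC, the count of members called was 1 (12.7% of all genes were called) and moved to 3 with DESeq2 (Mybpc2, Nrap and Myom1; 16.9% of all genes), 2 with DESeq2 size factors (12.6%), 3 with library size alone (15.8%), 7 with summed cardiomyocyte markers as the library size (52.1%) and 2 with at least 10 counts required in every library (14.5%). Leaving out a library gave 1 to 4, with 4 without METTL5-cKO TAC library 4 (23.4% of all genes) and 2 without control TAC library 1 (9.56%), and Mybpc2 was called each time. In NRVMs the count was 5, and 5 to 6 without a library. At 1 month, 3 months and for the interaction it was 0 under every alternative run. Of the single-gene values under the other alternatives, 383 kept direction and call, 26 reversed, 13 gained and 4 lost a call, and the cause was not tested.

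Reversed log2 fold changes with marker scaling were -0.12 for Ttn, -0.14 for Mybpc3 and -0.083 for Nebl at 1 month, 0.069 for Ttn, 0.092 for Myom3 and 0.039 for Nrap at 3 months, 0.052 for Myl3 after TAC and 0.24 for Nebl in the interaction. In NRVMs they were 0.0095 for Myom1, 1.28 for Myom3, 1.13 for Nebl, 1.04 for Nrap, 0.15 for Trim55, 0.43 for Speg, 0.020 for Tmod1, 0.56 for Klhl41, 0.78 for Vcl, 1.15 for Rbm20, 0.31 for Myl4, 0.018 for Myl7 and 0.68 for Sln, and Mybpc3 (-0.14) and Ldb3 (-0.17) lost their calls. This scaling moved the median of all genes to -0.17, 0.14, 0.43 and 1.33 in the 4 comparisons, and library size alone moved it to 0.14 after TAC and 0.13 in NRVMs. Of all calls, 51.9% were higher after TAC and 51.4% in NRVMs, against 79.7% and 71.5% with library size alone and 97.7% and 99.7% with marker scaling. Library size alone reversed Nrap at 1 month (0.022), Myom3 in NRVMs (0.084) and Nebl in the interaction (0.032), and no filter on low counts reversed Nrap at 1 month (0.0067).

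Without a library, values at 1 month ran from -0.12 to 0.11 for Ttn, -0.040 to 0.086 for Mybpc3, -0.10 to 0.0082 for Myom1, -0.36 to 0.48 for Myom2, -0.35 to 0.15 for Myom3 and -0.10 to 0.056 for Nrap. At 3 months they ran from -0.20 to 0.026 for Ttn, -0.058 to 0.061 for Mybpc3, -0.073 to 0.12 for Myom1, -0.30 to 0.29 for Myom3 and -0.18 to 0.0092 for Nrap. Myom3 in NRVMs ran from -0.13 to 0.094, and in the interaction Myom2 ran from -0.012 to 0.21 and Nebl from -0.17 to 0.074.

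A replicate block at 1 month called 0 members and turned Myom2 to 0.055. Same-numbered libraries there had deviations correlated at 0.239, 0.120, -0.107 and 0.0782, and differently numbered ones at -0.283 to 0.194. So few values cannot decide whether same-numbered libraries share more than a number. No paired analysis was possible because the columns carry no replicate number in the other tables. Counting limits Mybpc1 and Myom3 most, with at most 10 and 82 counts in a library.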
